A study of Mus musculus with 5 samples.

Results

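Eotaxins and Th2-attracting chemokines are small secreted proteins that draw eosinophils, basophils and T helper 2 (Th2) cells into tissue. The group described here held 8 genes, chosen by gene symbol, each found on 1 row among the 23183 gene symbols counted. There were 5 ligands, Ccl8, Ccl11, Ccl17, Ccl22 and Ccl24, and 3 receptors, Ccr3, Ccr4 and Ccr8. RNA came from whole lung of female wild-type BALB/c mice. The groups were mice given PM10 (inhalable airborne particles), ovalbumin (OVA, a protein allergen) and dexamethasone (PM10/OVA/Dex), mice given PM10, OVA and a chitinase-1 inhibitor abbreviated CPX (PM10/OVA/CPX), mice given PM10 and OVA (PM10/OVA), mice given PM10, and a control group with no treatment. PM10 was given intranasally (4 doses in 2 weeks), OVA by injection and later intranasally, and both drugs into the peritoneum, CPX as 6 doses in 3 weeks and dexamethasone, a synthetic glucocorticoid, as 3 doses within the final week. Lungs were collected 2 days after the final challenge. Each group had 1 library. The number of animals behind a library, their ages and the amounts dosed were not given in the sources used here. No group therefore has a replicate check, no test between conditions was made, and every difference below is between single libraries.

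In the mouse, CCL11 (eotaxin-1) and CCL24 (eotaxin-2) act on the receptor CCR3, which eosinophils carry in abundance. CCL17 and CCL22 act on CCR4, a receptor of Th2 cells, regulatory T cells and other skin- and lung-homing T cells. Mouse CCL8 is a ligand of CCR8, which marks a subset of Th2 and regulatory T cells. In allergic lung, macrophages and dendritic cells are known sources of CCL8, CCL17, CCL22 and CCL24, and fibroblasts, smooth muscle and epithelium of CCL11. Interleukin 4 (IL-4) and IL-13 induce several of these ligands through the transcription factor STAT6.

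The ligand genes lie in clusters. On GRCm38, Ccl11 (chromosome 11, 82057823 to 82062955, plus strand) and Ccl8 (chromosome 11, 82115185 to 82116799, plus strand) are 52.2 kb apart. Ccl22 (chromosome 8, 94745590 to 94751699, plus strand) and Ccl17 (chromosome 8, 94810453 to 94812036, plus strand) are 58.8 kb apart. Ccl24 is on a chromosome that holds no other member (chromosome 5, 135569937 to 135573049, minus strand). The receptors are all on chromosome 9, Ccr4 at 114490316 to 114504916 (minus strand), Ccr8 at 120092114 to 120094906 and Ccr3 at 124021972 to 124031689 (both plus strand). All 8 are protein-coding, and no other gene model of GENCODE M21 overlaps any of them.

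RefSeq promoter windows (GRCm38.p6, from 250 bases before to 50 bases after the annotated start, of the C57BL/6J reference strain) matched 6 of the 8 genes. The windows of Ccl8, Ccl17 and Ccl22 are shown because these are the ligands that were higher in PM10 lung, and because Ccl17 and Ccl22 are neighbours whose levels differed in the treated libraries. Each is printed 5′ to 3′ on the plus strand, and capitals mark matches to the motifs searched.
Ccl8, chr11:82114935-82115234: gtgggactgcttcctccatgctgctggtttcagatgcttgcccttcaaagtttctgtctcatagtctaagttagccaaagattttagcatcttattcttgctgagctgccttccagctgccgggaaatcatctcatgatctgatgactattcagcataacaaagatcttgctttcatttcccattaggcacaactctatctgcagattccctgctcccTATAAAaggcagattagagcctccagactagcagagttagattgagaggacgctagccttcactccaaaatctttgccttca
Ccl17, chr8:94810203-94810502: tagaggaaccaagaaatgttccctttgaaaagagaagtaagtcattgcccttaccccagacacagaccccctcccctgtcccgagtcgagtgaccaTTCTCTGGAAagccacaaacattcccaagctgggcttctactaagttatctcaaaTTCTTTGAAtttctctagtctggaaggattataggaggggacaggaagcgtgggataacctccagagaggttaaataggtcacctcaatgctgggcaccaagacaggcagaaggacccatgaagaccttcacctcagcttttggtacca
Ccl22, chr8:94745434-94745733: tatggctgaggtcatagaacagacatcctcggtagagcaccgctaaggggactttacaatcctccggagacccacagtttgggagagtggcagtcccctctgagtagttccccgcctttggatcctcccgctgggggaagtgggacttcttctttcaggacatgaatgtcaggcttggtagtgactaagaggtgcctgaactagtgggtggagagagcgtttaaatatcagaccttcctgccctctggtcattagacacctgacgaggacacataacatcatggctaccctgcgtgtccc

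The motifs searched on both strands were a STAT site of TTC and GAA with 3 bases between them (TTCNNNGAA) or with 4, the spacing that STAT6 prefers, a kappaB site (GGG, any 2 bases, TTTCC), a glucocorticoid response element (G, any base, ACA, any 3 bases, TGT, any base, C) and a TATA box (TATAAA). No matches overlapped. The Ccl17 window held TTCTCTGGAA at -154 to -145 and TTCTTTGAA at -99 to -91, counted back from the annotated start, and the Ccl8 window held a TATA box at -32 to -27. None of these motifs was found in the Ccl22 window. Over the 32817 windows of the same length, 8.29% held the STAT motif with 3 bases between, 6.94% the one with 4, 1.63% the kappaB letters, 0.475% the glucocorticoid element and 13.6% the TATA box. In the window of Ccr3 the minus strand of GGAAATTCCC, at -179 to -170, matched the kappaB letters. A match is a description of the letters, not a shown site of binding, and no match says only that the letters are not in this window.

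Library totals ran from 11993222 to 16929068 counts, so that 1 count was worth between 0.0577 and 0.0841 CPM (counts for each 1000000 counts of the library, its size adjusted with trimmed-mean-of-M-values factors, TMM). A gene was taken as measured when it averaged 1 CPM or more across libraries, as did 14305 genes and 7 of the 8 members, all but Ccr8. A member was counted as higher or lower when the ratio was at least 2-fold on log2(CPM + 1), a scale that understates differences of low genes. Folds are quotients of CPM, each followed by its exact 95% interval, which covers counting error only. Lung epithelial genes were abundant in every library, with the surfactant gene Sftpc between 12728 and 13995 CPM. Heart, fat and cartilage markers stood apart, at a summed 569 CPM in PM10/OVA/Dex, 221 in PM10/OVA/CPX, 248 in PM10/OVA, 583 in PM10 and 2817 in control, and all 12 of 12 were lower in PM10 than in control. The part that unequal tissue has in the values below was not tested. In whole lung, fewer cells of a type and less RNA per cell cannot be told apart.

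**Figure D1:**
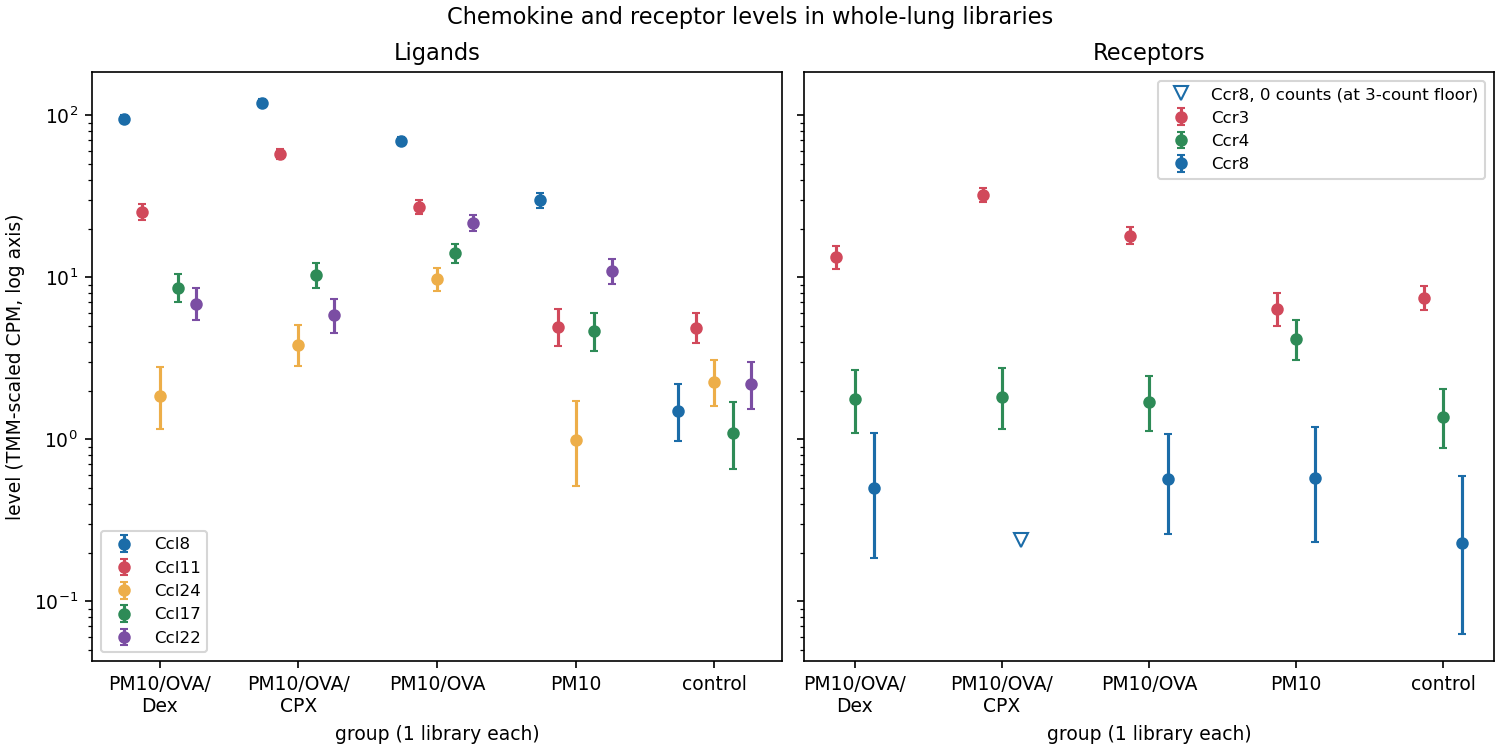
Levels of the 5 ligands (left) and 3 receptors (right) in TMM-scaled CPM on a log axis, 1 library per group, with bars for the exact Poisson 95% interval of the count. Ccl8 is the highest member in the 4 exposed libraries, and Ccr8 is drawn at its floor of 3 counts in PM10/OVA/CPX, where it had 0 counts.

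Ccl8, the mouse CCR8 ligand, had the widest range of the group. It was at 94.8 CPM in PM10/OVA/Dex, 120.0 in PM10/OVA/CPX, 69.3 in PM10/OVA, 29.9 in PM10 and 1.499 in control. No neighbours in this order overlapped in their counting intervals, and the control library, with 26 counts, was far below the rest. The range placed Ccl8 at percentile 99.9 of the 14305 measured genes. Per kb of exon, Ccl8 was at 185 CPM per kb in PM10/OVA/Dex, 235 in PM10/OVA/CPX, 136 in PM10/OVA and 58.5 in PM10, the highest of the 5 ligands in each of these libraries. In control it was at 2.93 CPM per kb, below Ccl11 at 4.53.

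The eotaxin Ccl11 was at 25.5 CPM in PM10/OVA/Dex, 58.0 in PM10/OVA/CPX, 27.3 in PM10/OVA, 4.97 in PM10 and 4.90 in control. Its intervals overlapped between PM10 and control and between PM10/OVA/Dex and PM10/OVA. It was therefore high in the 3 libraries that had received OVA and low in the 2 that had not. The second eotaxin, Ccl24, was at 1.85 CPM in PM10/OVA/Dex, 3.83 in PM10/OVA/CPX, 9.78 in PM10/OVA, 0.994 in PM10 and 2.25 in control. PM10/OVA was the only library in which Ccl24 stood clear of all the others, and the intervals of the next neighbours in the order overlapped throughout.

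Of the CCR4 ligands, Ccl17 was at 8.66 CPM in PM10/OVA/Dex, 10.3 in PM10/OVA/CPX, 14.1 in PM10/OVA, 4.64 in PM10 and 1.10 in control. Ccl22 was at 6.90 CPM in PM10/OVA/Dex, 5.83 in PM10/OVA/CPX, 21.7 in PM10/OVA, 10.9 in PM10 and 2.19 in control. Both were lowest in control and highest in PM10/OVA. They differed in the treated libraries, where Ccl17 stayed above its PM10 level and Ccl22 was below its own, and the treated pair overlapped in their intervals for each gene.

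Among the receptors, Ccr3 was at 13.3 CPM in PM10/OVA/Dex, 32.4 in PM10/OVA/CPX, 18.1 in PM10/OVA, 6.38 in PM10 and 7.50 in control. Intervals overlapped between control and PM10 only. Ccr4 was at 1.77 CPM in PM10/OVA/Dex, 1.84 in PM10/OVA/CPX, 1.70 in PM10/OVA, 4.14 in PM10 and 1.38 in control. PM10 was thus the 1 library with a raised Ccr4 level, on 50 counts, and the other 4, with 21 to 27 counts, overlapped. Ccr8 had 6 counts in PM10/OVA/Dex, 0 in PM10/OVA/CPX, 9 in PM10/OVA, 7 in PM10 and 4 in control. With 26 counts in all, the intervals of the 5 Ccr8 levels overlapped, and the floor of 3 counts in PM10/OVA/CPX is 0.240 CPM. With PM10/OVA/CPX put at that floor, Ccr8 would be 2.37-fold lower there than in PM10/OVA, but the exact lower limit from the counts is 1.56. The interval of Ccr8 in PM10/OVA/CPX against control (0 to 2.10) holds 1.

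The first comparison, PM10 against control, concerns the particles without allergen. Ligands of CCR8 and CCR4 were higher and the eotaxins were not. Ccl8 was 19.9-fold higher (13.4 to 31.0, 361 counts against 26), Ccl22 4.99-fold (3.46 to 7.36) and Ccl17 4.23-fold (2.48 to 7.55). With them stood the receptor Ccr4, 2.99-fold higher (1.81 to 5.09, 50 counts against 24). Ccl11 had a ratio of 1.01 (0.716 to 1.43) and Ccr3 of 0.851 (0.633 to 1.14), intervals that hold 1. Ccl24 was 2.26-fold lower in CPM (1.16 to 4.75, 12 counts against 39), but its log2(CPM + 1) ratio of -0.70 is short of the 2-fold limit, which it passed with a pseudocount of 0.25 CPM (-1.01). In total, 4 of the 7 measured members were at least 2-fold higher and 0 lower, where 3.70% of all measured genes were higher and 2.04% lower (5.74% in all). With a pseudocount of 5 CPM, Ccl17 (0.66) and Ccr4 (0.52) were no longer 2-fold higher.

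A list of other CC chemokines, most of them ligands of these receptors, was set beside them. Of 4 measured (Ccl5, Ccl7, Ccl9 and Ccl28), 2 were at least 2-fold higher in PM10, with a median log2 ratio of 1.11 where the median of all measured genes was -0.00. Ccl7, a CCR3 ligand that also attracts monocytes, was 8.83-fold higher (3.94 to 23.3, 43 counts against 7), and Ccl9, a mouse CC chemokine that acts mainly on CCR1, 6.48-fold (5.79 to 7.26). Ccl1, the second CCR8 ligand of the mouse, had between 0 and 3 counts in every library. In the list of Th2 and activated T cell markers, 5 of 9 measured were at least 2-fold higher in PM10 and 0 lower (median 1.01), among them the regulatory T cell gene Ctla4 at 6.13 CPM in PM10 and 1.27 in control. The Th2 genes of that list did not share this direction. Gata3, the transcription factor that defines Th2 cells, was at 9.11 CPM in PM10 and 13.2 in control, and Ptgdr2, a prostaglandin receptor of Th2 cells and eosinophils that was too low to be measured, had 4 counts in PM10 and 22 in control. The summed list was at 80.9 CPM in PM10 and 47.5 in control, while Cd3e, a chain of the T cell receptor complex, was at 8.61 CPM in PM10 and 7.90 in control. Whether the number of T cells has a part in the Ccr4 value was not tested.

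Adding the allergen is covered by PM10/OVA against PM10. The eotaxins and their receptor were higher. Ccl24 was 9.84-fold higher (5.47 to 19.4, 155 counts against 12), Ccl11 5.48-fold (4.18 to 7.31) and Ccr3 2.84-fold (2.20 to 3.70). In log2 ratio Ccl24 ranked 8th and Ccl11 12th from the top of all 14305 measured genes. Ccl17 was 3.03-fold higher (2.25 to 4.14), Ccl8 2.32-fold (2.05 to 2.62) and Ccl22 1.98-fold (1.62 to 2.44), the last just short of the limit at a log2 ratio of 0.93. Ccr4 ran the other way, 2.43-fold lower in CPM (1.49 to 4.04, 27 counts against 50), with a log2(CPM + 1) ratio of -0.93. Together 5 of 7 were at least 2-fold higher and 0 lower, against 0.692% and 1.27% of all measured genes (1.96% in all).

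Transcript length moved with this comparison. Genes with under 1 kb of exon had a median log2 ratio of 0.24 and those over 4 kb of -0.05, and Ccl8 and Ccl17 have 511 and 514 bases of exon. After the running median of genes of like length was removed, Ccl8 was at 0.94, under the limit, Ccr4 at -1.0005, past it, and Ccl24 (2.28), Ccl11 (2.07), Ccl17 (1.17) and Ccr3 (1.31) stayed above it. With a pseudocount of 5 CPM, Ccl17 was at 0.98.

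PM10/OVA against control covers both exposures. All 5 ligands were at least 2-fold higher, Ccl8 46.2-fold, Ccl17 12.8-fold, Ccl22 9.90-fold (7.07 to 14.2), Ccl11 5.56-fold (4.40 to 7.10) and Ccl24 4.35-fold (3.04 to 6.35). Ccr3 was 2.42-fold higher (1.96 to 2.99) and Ccr4 had a ratio of 1.23 (0.684 to 2.23). The count was 6 of 7 higher and 0 lower, where 3.17% and 2.73% of all measured genes were (5.90% in all), and the median log2 ratio was 2.26 against 0.01. Ccr3 fell short with a pseudocount of 5 CPM (0.89). Comparisons that share a library are not independent of one another.

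**Figure D2:**
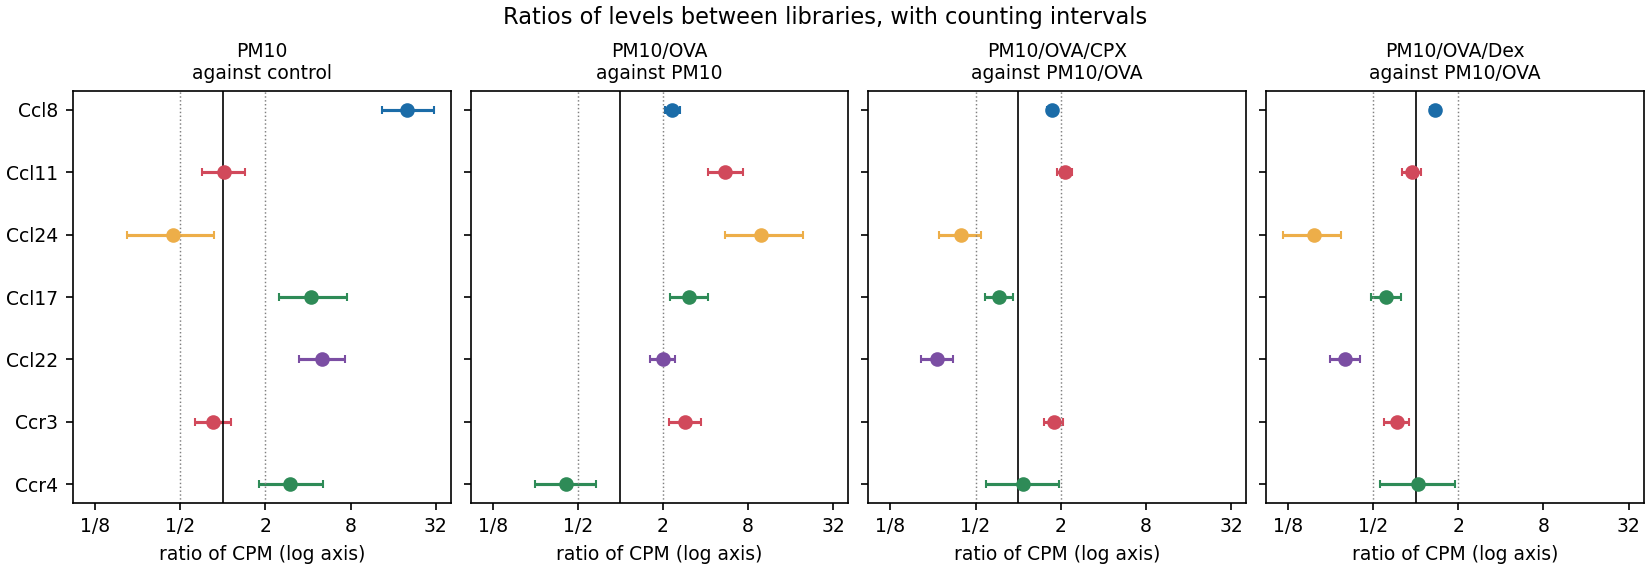
Ratios of TMM-scaled CPM on a log axis for the 7 measured members in 4 comparisons, with bars for the exact 95% counting interval, a solid line at 1 and dotted lines at 2-fold. Ccl8, Ccl17, Ccl22 and Ccr4 lie to the right in PM10 against control, in PM10/OVA against PM10 all 5 ligands and Ccr3 lie to the right and Ccr4 to the left, and Ccl22 and Ccl24 lie to the left under both treatments.

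For the chitinase-1 inhibitor, the comparison is PM10/OVA/CPX against PM10/OVA, 1 library against 1. The ligands went in opposite directions. Ccl22 was 3.72-fold lower (2.88 to 4.86, 73 counts against 344) and Ccl24 2.55-fold lower (1.83 to 3.60, 48 counts against 155). Ccl11 was 2.13-fold higher (1.89 to 2.41), Ccr3 1.79-fold (1.54 to 2.09) and Ccl8 1.73-fold (1.60 to 1.87). Ccl17 was 1.37-fold lower (1.09 to 1.71), and Ccr4 had a ratio of 1.08 (0.591 to 1.95). At the 2-fold limit 1 of 7 was higher and 2 were lower, where 0.636% and 0.762% of all measured genes were (1.40% in all). Ccl11 was close to the limit, at 0.97 with a pseudocount of 5 CPM and 0.96 with the length trend removed, and Ccl24 was at -0.74 with a pseudocount of 5 CPM.

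For the glucocorticoid, the comparison is PM10/OVA/Dex against PM10/OVA. Ccl24 was 5.29-fold lower (3.37 to 8.68, 22 counts against 155) and Ccl22 3.15-fold lower (2.47 to 4.05, 82 counts against 344). Ccl17 was 1.62-fold lower (1.28 to 2.07) and Ccr3 1.36-fold lower (1.12 to 1.67). Ccl11 had a ratio of 0.935 (0.805 to 1.09), an interval that holds 1, and Ccl8 was 1.37-fold higher (1.26 to 1.49). At the 2-fold limit 0 of 7 were higher and 2 were lower, with 1.20% and 1.60% of all measured genes as background (2.80% in all). Heart, fat and cartilage markers were also higher in PM10/OVA/Dex than in PM10/OVA, 8 of 12 by at least 2-fold, and their part in these values was not tested.

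PM10/OVA/Dex against PM10/OVA/CPX sets the treatments side by side. Ccr3 was 2.44-fold lower with dexamethasone (2.03 to 2.95) and Ccl11 2.28-fold lower (1.99 to 2.61), while Ccl24 was 2.07-fold lower in CPM (1.23 to 3.60) with a log2(CPM + 1) ratio of -0.76. Ccl8 was 1.27-fold lower (1.17 to 1.37). Ccl17 (0.841, 0.643 to 1.10) and Ccl22 (1.18, 0.852 to 1.64) had intervals that hold 1. The count was 0 of 7 higher and 2 lower, beside 1.06% and 0.734% of all measured genes (1.79% in all). With the length trend removed, Ccl11 was at -0.999, just inside the limit.

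Against control, most members were also higher in the treated libraries. In PM10/OVA/CPX, 5 of 7 members were at least 2-fold higher and 0 lower (2.73% and 2.99% of all measured genes, 5.73% in all), Ccl8 by 80.1-fold (54.4 to 123), Ccl11 by 11.8-fold (9.45 to 15.0), Ccl17 by 9.40-fold (5.78 to 16.1), Ccr3 by 4.33-fold (3.54 to 5.31) and Ccl22 by 2.66-fold (1.77 to 4.05). In PM10/OVA/Dex, 4 of 7 were higher and 0 lower (1.57% and 2.01%, 3.59% in all), Ccl8 by 63.2-fold (42.9 to 97.2), Ccl17 by 7.91-fold (4.82 to 13.7), Ccl11 by 5.20-fold (4.07 to 6.69) and Ccl22 by 3.15-fold (2.12 to 4.75). Ccl24 was 1.70-fold higher than control with CPX (1.09 to 2.67) and at a ratio of 0.823 with dexamethasone (0.465 to 1.42). With a pseudocount of 5 CPM, Ccl22 was under the limit in both (0.59 with CPX and 0.73 with dexamethasone), and with the length trend removed it was at 0.99 with CPX.

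Ligands that share a receptor were then compared with each other within a library, per kb of exon. Ccl11 over Ccl24, the eotaxin ratio, was 16.5 in PM10/OVA/Dex (10.7 to 26.7), 18.1 in PM10/OVA/CPX (13.5 to 24.8), 3.34 in PM10/OVA (2.77 to 4.03), 5.98 in PM10 (3.19 to 12.2) and 2.61 in control (1.77 to 3.92). Both treated libraries were above the PM10/OVA library with no overlap of intervals. Relative to PM10/OVA the ratio was 4.94-fold higher with dexamethasone (3.06 to 8.30) and 5.43-fold higher with CPX (3.81 to 7.84). The levels behind it differed, since Ccl11 was at 23.5 CPM per kb in PM10/OVA/Dex, 53.6 in PM10/OVA/CPX and, with no drug, 25.2 in PM10/OVA, and Ccl24 was at 1.43, 2.96 and 7.55 CPM per kb in the same libraries.

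Ccl17 over Ccl22, the ratio of the neighbouring CCR4 ligands, was 5.68 in PM10/OVA/Dex (4.21 to 7.69), 7.99 in PM10/OVA/CPX (5.95 to 10.8), 2.93 in PM10/OVA (2.47 to 3.48), 1.92 in PM10 (1.38 to 2.64) and 2.26 in control (1.23 to 4.02). It too was highest in the treated libraries. Relative to PM10/OVA it was 1.94-fold higher with dexamethasone (1.37 to 2.75) and 2.73-fold higher with CPX (1.93 to 3.86). For the chromosome 11 neighbours, Ccl8 over Ccl11 was 7.88 in PM10/OVA/Dex, 4.38 in PM10/OVA/CPX, 5.38 in PM10/OVA, 12.7 in PM10 and 0.648 in control, so Ccl8 was below Ccl11 per kb in control alone, where the interval (0.401 to 1.02) holds 1.

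**Figure D3:**
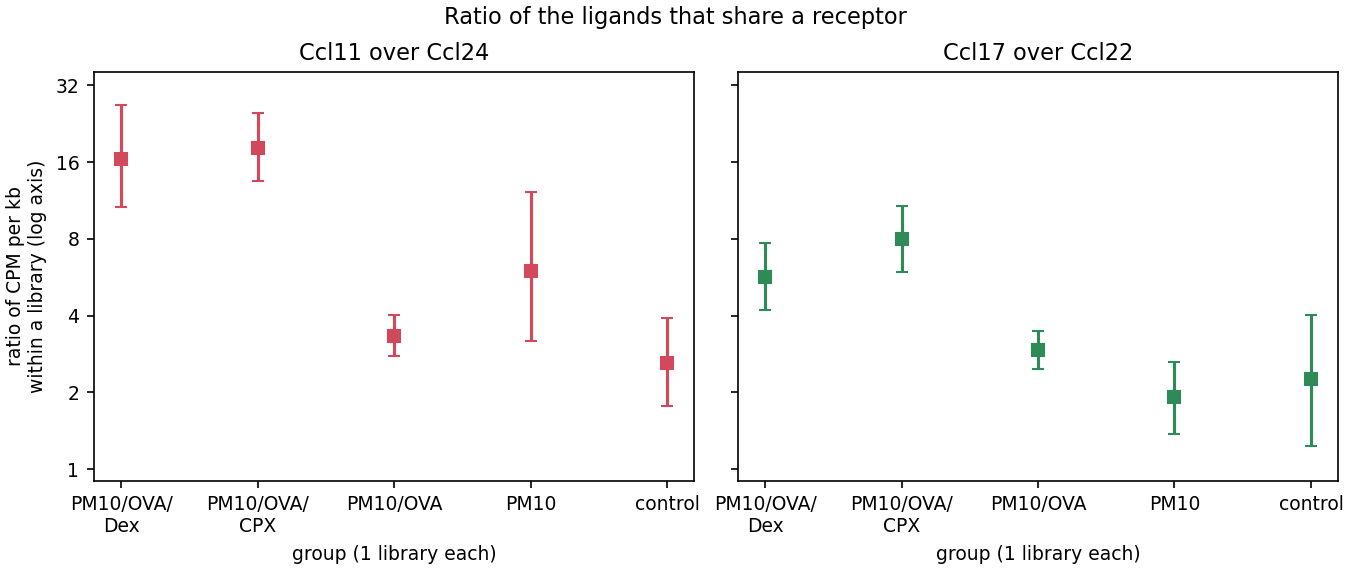
Ratio of Ccl11 to Ccl24 (left) and of Ccl17 to Ccl22 (right) in CPM per kb of exon within each library, on a log axis, with bars for the exact 95% counting interval. The treated libraries lie at 16.5 and 18.1 for the eotaxins and at 5.68 and 7.99 for the CCR4 ligands, above the other 3 libraries in point value.

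Ccr3 was read beside the eosinophil markers. Of the 10 listed, 9 were in the files and 7 were measured. Prg2, the eosinophil major basic protein, had 12 counts in PM10/OVA/Dex, 133 in PM10/OVA/CPX, 44 in PM10/OVA, 1 in PM10 and 2 in control, and Epx, eosinophil peroxidase, had 1, 13, 1, 0 and 0 counts in the same libraries. Prg2 had the same order of libraries as Ccr3 where OVA was given, highest with CPX and lowest with dexamethasone, and Epx was also highest with CPX. In point value Alox15, a lipoxygenase gene, had the Ccr3 order over all 5 libraries. Prg2 had it too, though on only 1 count in PM10 and 2 in control. Alox15 was at 22.1 CPM with dexamethasone, 47.0 with CPX, 24.0 for PM10/OVA, 6.13 for PM10 and 10.8 for control. The rest of the measured markers had other orders, though in point value all but Ear6 also peaked with CPX. The Ear1 peak was slight, at 62.1 CPM with CPX and 61.5 with dexamethasone, and that of Il5ra was slight too. Il5ra, the IL-5 receptor chain of eosinophils, was at 4.46 CPM in PM10/OVA/Dex, 4.63 in PM10/OVA/CPX and, with no drug, 2.84 in PM10/OVA, and Siglecf, Ear1 and Ear2 were likewise higher with dexamethasone than in PM10/OVA. Ear6, another ribonuclease of that family, was highest in PM10/OVA, at 4.35 CPM, against 2.27 in PM10/OVA/Dex and 3.35 in PM10/OVA/CPX. In PM10/OVA/CPX against PM10/OVA, 2 of the 7 markers were at least 2-fold higher and 0 lower (median 0.87), with Prg2 3.83-fold higher (2.70 to 5.51) and Ear2, an eosinophil-associated ribonuclease, 2.77-fold (2.61 to 2.94). In PM10/OVA/Dex against PM10/OVA, 0 of 7 passed in either direction (median 0.21), with Prg2 2.75-fold lower in CPM (1.43 to 5.72) and Ear2 1.75-fold higher (1.64 to 1.87). The summed eosinophil list was at 297 CPM in PM10/OVA/Dex, 453 in PM10/OVA/CPX, 194 in PM10/OVA, 196 in PM10 and 139 in control. Siglecf, Ear1 and Ear2 are also genes of alveolar macrophages, and the sum rests mainly on them. Whether eosinophil number has a part in the Ccr3 values was not tested.

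**Figure D4:**
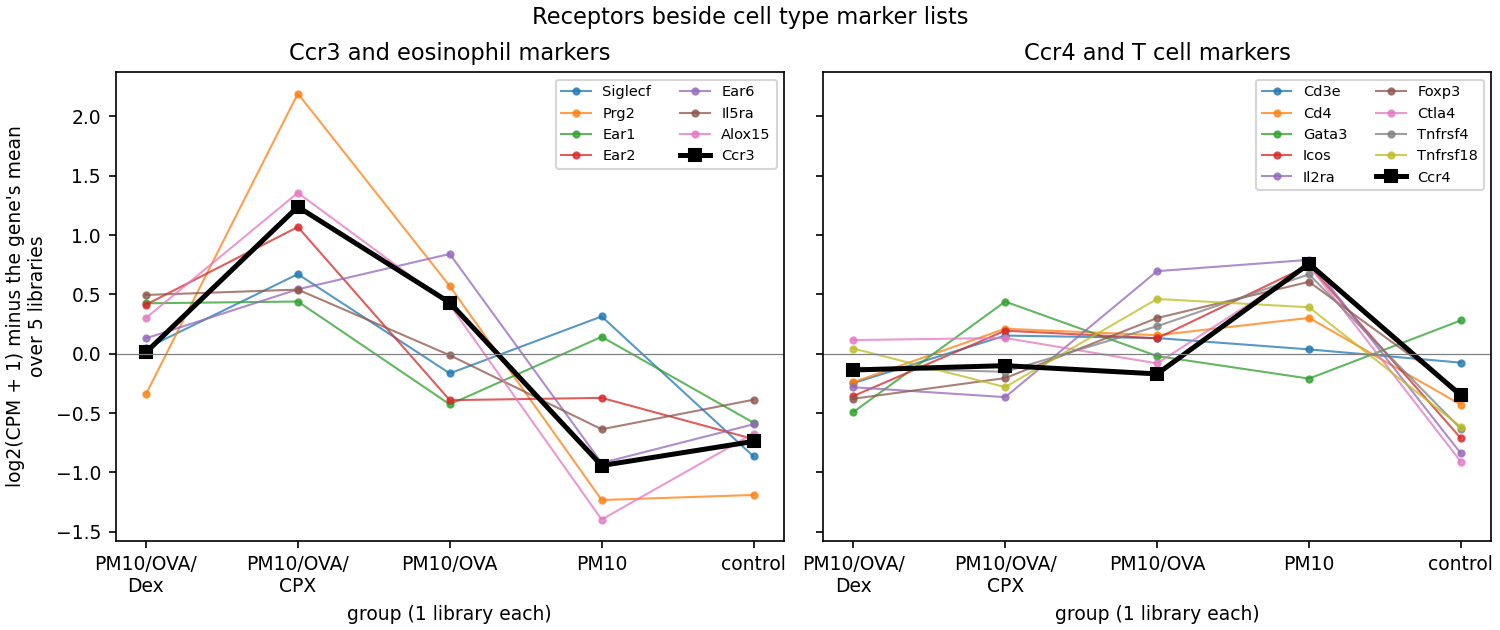
Profiles of Ccr3 beside 7 eosinophil markers (left) and of Ccr4 beside 9 T cell markers (right), as log2(CPM + 1) minus each gene's mean over the 5 libraries, 1 library per group. Ccr3, Prg2, Alox15, Ear2, Siglecf, Ear1 and Il5ra peak in PM10/OVA/CPX, and Ear6 peaks in PM10/OVA. Ccr4 peaks in PM10 with Icos, Ctla4, Foxp3, Tnfrsf4, Il2ra and Cd4. Cd3e and Gata3 peak in PM10/OVA/CPX and Tnfrsf18 in PM10/OVA. All these peaks are point values. Those of Il2ra, Cd4, Cd3e, Tnfrsf18, Ear1 and Il5ra are close to the next library, as with Il2ra at 9.77 CPM in PM10 and 9.08 in PM10/OVA.

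The cell types known to make the ligands were described in the same way. Dendritic cell markers had a summed level of 250.001 CPM in PM10/OVA/Dex, 379 in PM10/OVA/CPX, 336 in PM10/OVA, 326 in PM10 and 156 in control. With dexamethasone 2 of 9 were at least 2-fold lower than in PM10/OVA and 0 higher (median -0.20), and with CPX 1 of 9 was higher and 0 lower (median 0.17). Mgl2, a lectin of a dendritic cell subset and of macrophages, was at 39.8 CPM in PM10/OVA/Dex, 59.3 in PM10/OVA/CPX and, with no drug, 26.7 in PM10/OVA, and Ccr7, a receptor of migrating dendritic cells, at 11.9, 16.7 and 25.5 CPM. Ccl22 was lower than in PM10/OVA in both treated libraries, as Ccr7 and the marker Fscn1 were. With CPX, however, 6 of the 9 markers were above their PM10/OVA level, and Ccr7, Fscn1 and Clec10a were below it. Of the treated libraries, the summed marker level was lower with dexamethasone alone. Itgax was the largest part of that sum, at 122 CPM with dexamethasone against 182 CPM for PM10/OVA. Yet 4 of the 9 markers, Cd209a, Clec10a, Mgl2 and Zbtb46, were above their PM10/OVA level with dexamethasone.

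Markers of alternatively activated and interstitial macrophages were split in the treated libraries. With CPX, 2 of 8 were at least 2-fold higher than in PM10/OVA and 3 lower (median -0.29), and with dexamethasone 1 was higher and 1 lower (median -0.14). Retnla, a secreted product of such macrophages, was at 1906 CPM in PM10/OVA/Dex, 3846 in PM10/OVA/CPX and, with no drug, 1857 in PM10/OVA, whereas Arg1, which breaks down arginine, was at 5.63, 10.6 and 104 CPM and Cd163, a scavenger receptor, at 14.3, 7.03 and 24.4 CPM. Retnla, Chil3 and Ccl11 were thus highest with CPX, and Arg1, Cd163, Ccl24 and Ccl22 were highest in PM10/OVA. Fibroblast and smooth muscle markers moved little, with 0 of 8 past 2-fold in either direction under each treatment (medians -0.09 with CPX and 0.20 with dexamethasone). Their summed level was 1655 CPM in PM10/OVA/Dex, 1453 in PM10/OVA/CPX, 1585 in PM10/OVA, 1665 in PM10 and 2266 in control, which is not the order of Ccl11. The part of these cells in the ligand values was not tested.

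The list of type 2 cytokines and their receptors was measured mainly through the receptors. Of 15 listed genes 9 were measured, and 3 of 9 were at least 2-fold higher in PM10/OVA than in control and 0 lower (median 0.65), among them Il33, an alarmin of epithelium and stroma, 3.14-fold higher (2.95 to 3.35). The others were Csf2rb, 3.22-fold higher (2.99 to 3.48), and Csf2rb2, 3.21-fold (2.83 to 3.64). In PM10 against control these receptor genes were already 3.31-fold (3.06 to 3.58) and 3.46-fold higher (3.04 to 3.94). Il33 was at 121 CPM in PM10/OVA/Dex, 136 in PM10/OVA/CPX, 232 in PM10/OVA, 133 in PM10 and 74.0 in control. Its order of the first 3 was that of Ccl17, lowest with dexamethasone. Under each treatment 0 of the 9 passed 2-fold (medians -0.17 with CPX and -0.33 with dexamethasone). Stat6 lay between 129 and 147 CPM and Il4ra, the receptor chain shared by IL-4 and IL-13, between 144 and 191 CPM over all 5 libraries. Neither was among the 3 that were higher in PM10/OVA than in control. Il1rl1, the IL-33 receptor, was 1.79-fold higher with CPX than in PM10/OVA (1.47 to 2.17).

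Of the other ligands, Ccl7 was low in the treated libraries. It was at 2.52 CPM in PM10/OVA/Dex, 2.79 in PM10/OVA/CPX, 22.3 in PM10/OVA, 3.56 in PM10 and 0.404 in control. It was 8.83-fold lower with dexamethasone than in PM10/OVA (6.07 to 13.3) and 7.97-fold lower with CPX (5.62 to 11.6), and so was lower under both treatments, as Ccl24 was. Ccl11 differed from it with CPX, where it was higher, while with dexamethasone the interval of Ccl11 holds 1. Among the 4 measured, 2 were at least 2-fold lower with dexamethasone, Ccl7 and Ccl9, which acts mainly on CCR1 (2.15-fold, 2.00 to 2.30). With CPX 1 was lower, Ccl7, and 0 were higher under either treatment. The scavenging receptors Ackr1, Ackr2 and Ackr4 and the peptidase gene Dpp4, whose products bind or trim these chemokines, had 0 of 4 past 2-fold under either treatment. Ackr1 was close to the limit with dexamethasone, 2.45-fold lower than in PM10/OVA in CPM (1.44 to 4.33, 19 counts against 62), with a log2(CPM + 1) ratio of -0.92.

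The genes with the most similar profiles over the 5 libraries were found by the root mean square difference of log2(CPM + 1), each gene centred on its own mean, among 11643 genes averaging 5 CPM or more. For Ccl22 they were Il4i1, a secreted amino acid oxidase, at 0.197, Mefv, which encodes pyrin, at 0.201 and Clec5a, a receptor of myeloid cells, at 0.210, where the median over all candidates was 0.938. Il4i1 was at 8.49 CPM in PM10/OVA/Dex, 8.22 in PM10/OVA/CPX, 38.7 in PM10/OVA, 14.0 in PM10 and 3.86 in control. For Ccr3 they were Retnlg at 0.113, the lipoxygenase Alox15 at 0.249 and Gapt at 0.294, with a median of 0.805. For Ccl8 the nearest was the macrophage elastase Mmp12 at 0.317, then Slc26a4 at 0.662 and Retnla at 0.790, with a median of 2.04.

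For Ccl11 the nearest were the collagen gene Col6a5 at 0.249, the trefoil factor Tff2 at 0.321 and the adrenergic receptor Adra2a at 0.392, with a median of 1.33. Ccl17 was closest to Serpina3h at 0.191, the coagulation factor gene F10 at 0.225 and the inhibitory antibody receptor Fcgr2b at 0.245, with a median of 1.01. Ccl24 had no neighbour as close, with Mmp9 at 0.382, S100a8 at 0.395 and Selp at 0.401, all against a median of 0.842. Ccr4 was nearest to Kif23, a kinesin of cell division, at 0.0685, to Trafd1 at 0.0836 and to Hpse at 0.0898, with a median of 0.418. With 5 libraries such likeness is a description, and the members of each set share the same libraries.

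**Figure D5:**
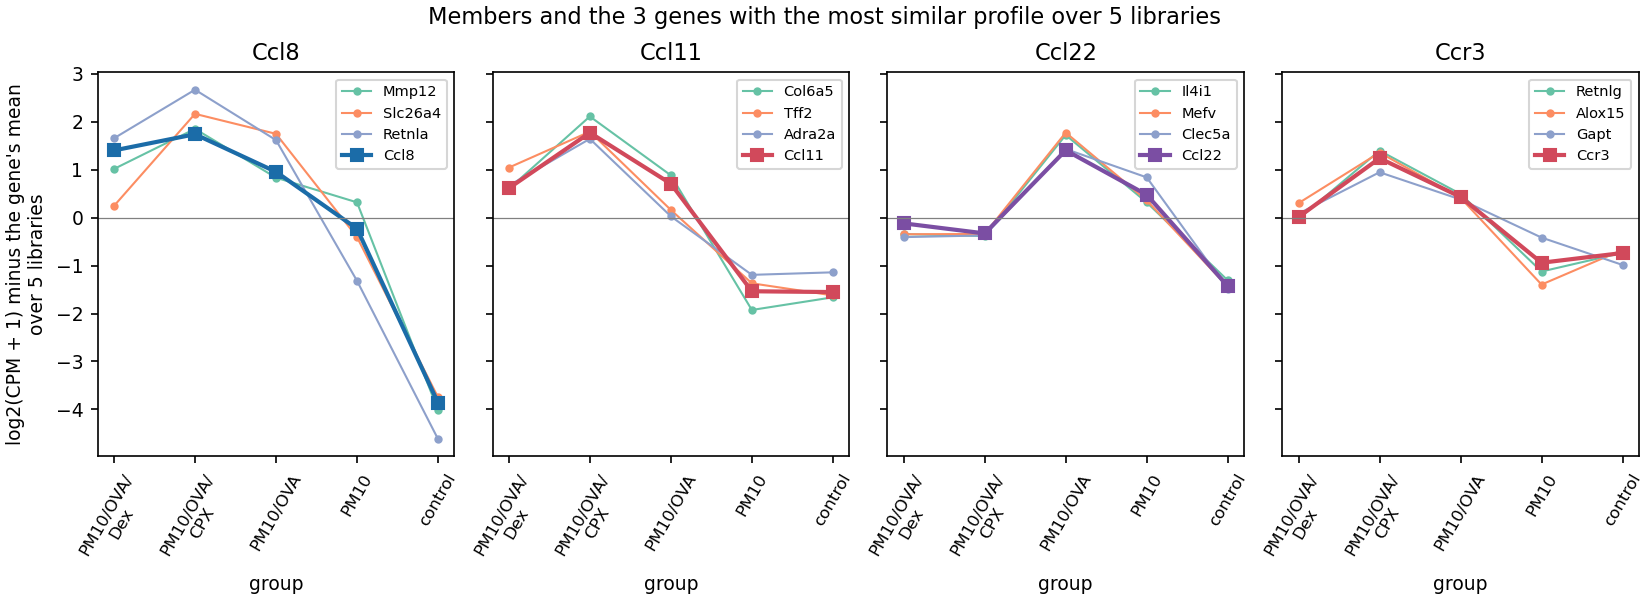
Profiles of Ccl8, Ccl11, Ccl22 and Ccr3 (squares) with the 3 genes nearest to each (circles), as log2(CPM + 1) minus each gene's mean over the 5 libraries, 1 library per group. Ccl11 and Ccr3 peak in PM10/OVA/CPX with their nearest genes, and Ccl22 peaks in PM10/OVA.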

How the data were processed

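Whole-lung RNA of 5 groups was sequenced, 1 library per group. Trizol extraction and a directional NEBNext Ultra II library kit were used, per the labels' protocols. Alignment was by TopHat against mm10, per the submitters' processing notes. The counting tool, its strand setting and its handling of reads shared between genes were not given in the sources used here, so levels within the related CC chemokine clusters carry that doubt. The authors deposited raw whole-number counts for each gene symbol, 1 file per library.

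Counts were scaled to CPM with TMM factors over the 5 libraries (edgeR 4.0.16, R 4.3.3). Ratio intervals are Clopper-Pearson conditional intervals from the counts, level intervals exact Poisson (scipy 1.17.1), and the floor for 0 counts is 3 counts, all at 95% and for counting error only. The interval code was tested on simulated data. Exon lengths and loci came from GENCODE M21 (GRCm38, the same assembly as mm10). Of the measured genes, 14222 (99.4%) had a length. The length trend was a running median over 501 genes. The 8 members and 12 gene lists were chosen with earlier results of these data known, and the pairs of ligands after their levels had been seen. From each list up to 3 genes with the largest ratio per comparison could be named, and from the profiles the nearest 3. A few marker genes beside these (Ccl1, Cd3e, Epx, Il4, Il5, Il13, Il5ra, Mcpt8, Ptgdr2, Fcer1a, Cd200r3, Stat6, Cd209a, Zbtb46) were named after their values were seen. Alternatives were other scalings (library totals, DESeq2 1.42.0 size factors, upper quartile), pseudocounts, filters, the length trend and other limits of fold. The other scalings of the levels were chosen after seeing the data.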

Additional observations from a re-analysis of the deposited data

How the results depend on the processing

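No member's ratio that passed 2-fold changed sign under any alternative run, and the 3 other scalings left every count of members and every level within its counting interval. Counts of members past the limit were otherwise within 1.5 times, with these exceptions. With a pseudocount of 5 CPM the count was 2 in PM10 against control (4 before) and 1 in PM10/OVA/CPX against PM10/OVA (3 before). When only genes averaging 5 CPM or more were kept, it was 1 in PM10/OVA/Dex against PM10/OVA (2 before), since Ccl24 and Ccr4 then drop out. With the length trend removed it was 1 in PM10/OVA/Dex against PM10/OVA/CPX (2 before). At a limit of 1.5-fold it was 5 in PM10/OVA/CPX against PM10/OVA. At 4-fold it was 1 in PM10 against control, 2 in PM10/OVA against PM10, 3 in PM10/OVA/CPX against control, and 0 in both treatments against PM10/OVA and in PM10/OVA/Dex against PM10/OVA/CPX. By gene, 8 calls were lost with a pseudocount of 5 CPM, 4 were lost and 1 gained with the length trend removed, and 2 were gained with a pseudocount of 0.25 CPM. Depth limits Ccr8, Ccr4 and Ccl24 most, with 26, 145 and 276 counts over all libraries. No paired analysis was possible because each group has 1 library.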

Other observations

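The type 2 cytokine genes themselves were close to the floor. Il4 had 11 counts in PM10/OVA/Dex, 7 in PM10/OVA/CPX, 15 in PM10/OVA, 2 in PM10 and 3 in control. Il13 had 2, 15, 7, 2 and 0 counts in the same libraries and Il5 had 1, 4, 8, 1 and 1. Il13 was thus highest in PM10/OVA/CPX, where Ccl11, Ccr3 and Ccl8 were also highest, on counts too few to place against library differences.

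Of the 6 basophil and mast cell markers, 4 were highest in PM10/OVA (Mcpt8, Ms4a2, Fcer1a and Cd200r3) and 2 in control (Cpa3 and Kit). Mcpt8, a basophil protease, had 0 counts in PM10/OVA/Dex, 5 in PM10/OVA/CPX, 47 in PM10/OVA, 3 in PM10 and 2 in control. Ms4a2, a chain of the IgE receptor of basophils and mast cells, had 6, 11, 61, 13 and 13 counts. Both were highest in PM10/OVA, as Ccl24 and Ccl22 were. Cpa3, a mast cell protease, was at 2.86 CPM in PM10/OVA/Dex, 1.68 in PM10/OVA/CPX, 2.96 in PM10/OVA, 1.66 in PM10 and 3.81 in control, and Kit, a receptor of mast cells and other lung cells, was at 192 CPM in PM10/OVA and 223 in control. The median log2 ratio of the 3 measured markers was -0.22 in PM10/OVA against control, with 1 at least 2-fold higher and 0 lower. Against PM10/OVA, 1 of the 3 was at least 2-fold lower with dexamethasone and 1 with CPX. Housekeeping genes had a median log2 ratio of 0.47 in PM10/OVA against control, with 0 of 8 past 2-fold. Their median was -0.39 in PM10/OVA/Dex against PM10/OVA, where 1 of 8 was above 0 and 0 passed 2-fold. In PM10 against control it was 0.25, and 1 of 8 passed, B2m (2.10-fold higher, 2.06 to 2.15). Lung epithelium markers had 0 of 5 past 2-fold in any of the 8 comparisons.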
